A study of Mus musculus with 2 samples.

Results

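Interferon-stimulated genes are the genes that cells switch on when interferons, the antiviral cytokines, bind their receptors. Here 41 such genes were taken by symbol in mouse skin with mite-induced dermatitis, and 38 of them had a probe of their own among 22180 measured genes. Ifi44 was not analysed here, and Oas1a and Gbp2 were read only by probes annotated to more than 1 gene, so these 3 genes were left out. Type I interferons (alpha, beta) signal through a complex that includes STAT2 and IRF9 and binds a promoter element called the ISRE. Type II interferon (gamma) acts through a promoter element called GAS. In atopic dermatitis the dominant cytokines are of type 2, and interferon-induced genes are read as a record of interferon exposure in keratinocytes, vessels and leukocytes.

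The ZAG sample was dorsal skin from NC/Nga females (an inbred mouse strain) given Dermatophagoides farinae (house dust mite) extract ointment for 6 weeks together with recombinant ZAG at 1 µg/mL, and it was set against skin of mice given the mite ointment and labelled control. The abbreviation ZAG stands for zinc-alpha-2-glycoprotein, which is secreted and known for mobilising lipid. Both groups had dermatitis, were 6 weeks old at the start and 13 weeks old at sampling, and skin without dermatitis was not analysed here. The design text names 3 mice a group, but each group has 1 array column, and how the mice relate to that column is not stated in the labels or the design text. There is therefore no replicate error and no test, and every difference below describes these 2 Affymetrix arrays.

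Values are log2 levels as deposited, and each difference is ZAG minus control. A background gauge of 3.16 on the log2 scale was set from 1390 olfactory and vomeronasal receptor genes, which skin is not known to use, as the level that 95% of them did not exceed. Of the 38 measured members, 32 were above the gauge on both arrays, 4 on 1 array and 2 on neither. As a scale for probe error, the differences of several probes of the same gene had an SD of 0.244 over the 591 such genes whose mean level reached the median of all genes. The arrays were close, with a Pearson correlation of 0.988 across 33793 probes, which are not independent replicates. Of the keratinocyte genes that mark skin, Krt1 was at 11.80 with ZAG and 11.93 in control and Krt10 was at 12.16 with ZAG and 12.15 in control.

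Before the values, the promoter stretches that carry the known elements are shown, because the members were chosen by symbol and not by sequence. RefSeq promoter entries (GRCm38.p6) were found for 33 of the 41 listed genes, and the 250 bases before each start site were searched. Dhx58, Zbp1, Mx1, Mx2, Oas2, Usp18, Parp14 and Rtp4 had no entry and were not searched. The ISRE core was taken as GAAA, any 2 bases and GAAA again, searched on both strands. The GAS core was taken as TTC, any 3 bases and GAA, which reads the same on both strands. The ISRE core was present in 14 of 33 members (42.4%), against 3.46% of the 27025 genes in the table, and the GAS core in 11 of 33 (33.3%), against 8.13%. In the sequences below, capitals mark the ISRE core, and overlapping matches run together. The stretches were chosen after the values were seen: Isg15 for its overlapping matches, Ifit1 and Ifit3 as related antiviral genes, and Gbp7, Gbp3, Igtp and Irgm1 because every one of the 6 listed GTPase genes held the core. Oasl2 is shown because it had the lowest difference of all members.
Isg15: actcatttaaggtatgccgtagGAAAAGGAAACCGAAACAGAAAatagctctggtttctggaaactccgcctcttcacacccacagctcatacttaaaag
Ifit1: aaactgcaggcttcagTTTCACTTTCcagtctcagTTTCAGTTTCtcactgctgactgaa
Ifit3: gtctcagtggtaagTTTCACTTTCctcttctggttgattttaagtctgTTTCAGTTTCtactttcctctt
Gbp7: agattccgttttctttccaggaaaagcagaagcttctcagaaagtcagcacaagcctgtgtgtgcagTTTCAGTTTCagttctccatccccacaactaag
Gbp3: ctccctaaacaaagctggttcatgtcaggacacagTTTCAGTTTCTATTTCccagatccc
Igtp: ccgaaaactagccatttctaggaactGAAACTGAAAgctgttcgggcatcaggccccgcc
Irgm1: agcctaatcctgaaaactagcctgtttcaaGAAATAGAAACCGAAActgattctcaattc
Oasl2: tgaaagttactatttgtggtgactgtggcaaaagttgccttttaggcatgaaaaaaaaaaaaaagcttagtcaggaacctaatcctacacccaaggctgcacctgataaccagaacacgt
The Isg15 stretch is chr4:156200819-156200918, minus strand, that of Ifit1 chr19:34640769-34640828, plus strand, and that of Ifit3 chr19:34583359-34583428, plus strand. The Gbp7 stretch is chr3:142530216-142530315, plus strand, and that of Gbp3 chr3:142559964-142560023, plus strand. The Igtp stretch is chr11:58199496-58199555, plus strand, that of Irgm1 chr11:48871421-48871480, minus strand, and that of Oasl2 chr5:114896814-114896933, plus strand. The Isg15 promoter held 3 overlapping matches between 78 and 57 bases before its start. The form TTTCAGTTTC was found in 5 members, among them Ifit1, Ifit3, Gbp3 and Gbp7. No match to either core was found in the 250 bases of Oasl2.

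**Figure D1:**
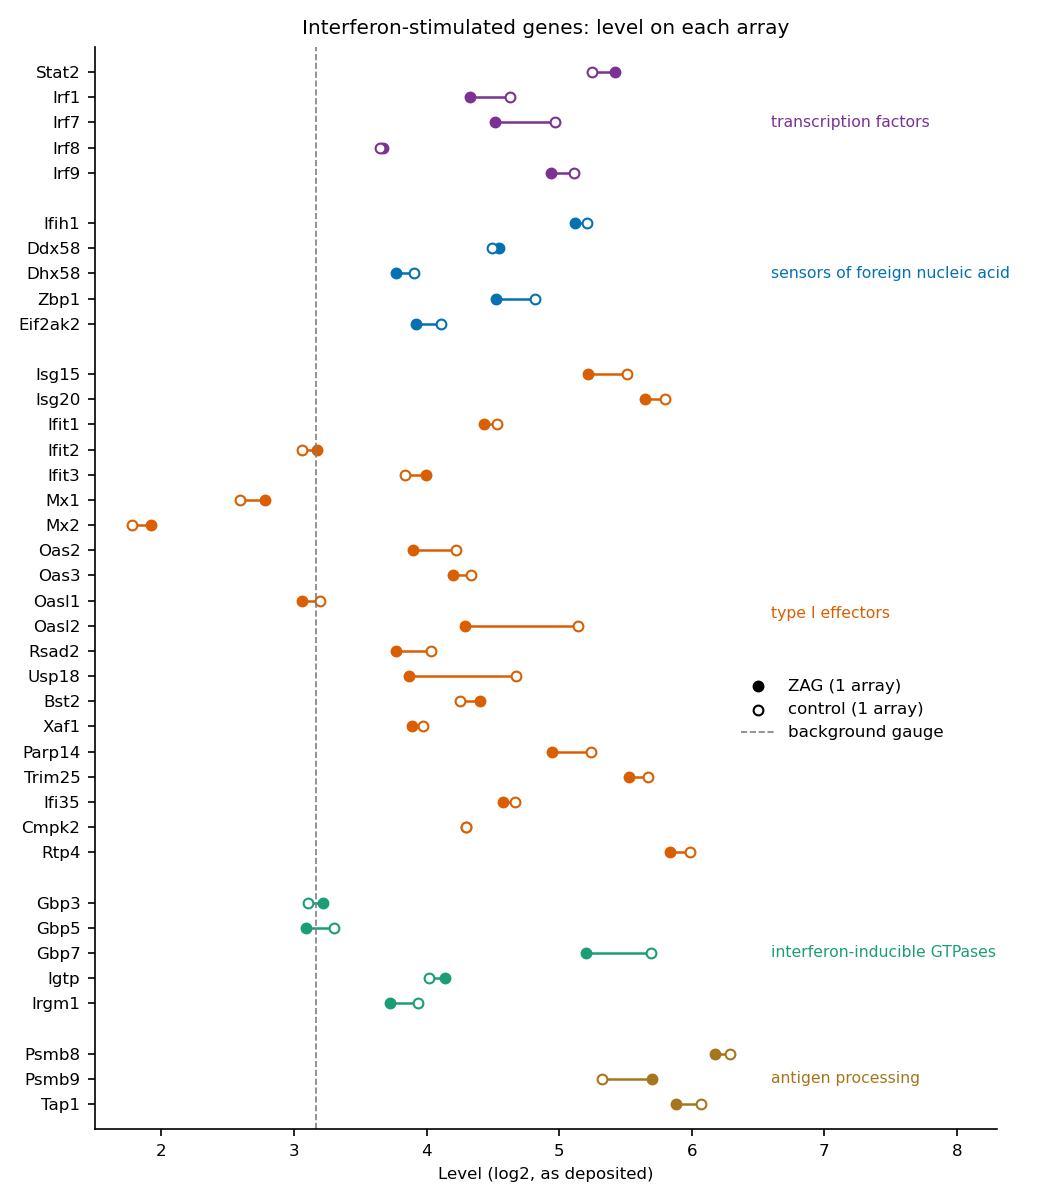
Log2 level of each of the 38 measured interferon-stimulated genes (rows, grouped by role) on the ZAG array (filled points) and the control array (open points), with the background gauge as a dashed line. For most members the points lie close together, with the widest gaps in Oasl2 and Usp18, and the Mx1 and Mx2 points lie left of the gauge.

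As a group the interferon-stimulated genes were slightly lower in ZAG-treated skin, and most of the differences were small. Of 38 members, 26 (68.4%) were lower with ZAG, against 47.9% of all genes, and 12 were higher, against 51.8% of all genes. The median log2 difference of the members was -0.14, against 0.01 over all genes. Among the 29 members at or above the median level of all genes (3.87), 22 (75.9%) were lower, against 47.6% of the 11090 genes at that level, and 7 were higher, against 52.3%. No member was 2-fold different. The background for that threshold was 0.609% lower and 0.153% higher over all genes, and 1.15% lower and 0.271% higher among those at or above the median level. At 1.5-fold, 2 members were lower and 0 higher, against 2.79% of all genes lower and 1.46% higher. At or above the median level these were 2 of 29 members (6.90%), against 5.08% of genes lower and 2.48% higher, so the share of members past 1.5-fold was near the background. Differences smaller than the SD between probes made up 27 of 38 members (71.1%), near the 64.1% of all genes. By at least that SD, 10 members (26.3%) were lower, against 17.7% of all genes, and 1 (2.63%) was higher, against 18.2%. At or above the median level, 18 of 29 members lay within that SD, against 60.4% of genes, 10 were lower beyond it, against 20.1%, and 1 was higher, against 19.4%.

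**Figure D2:**
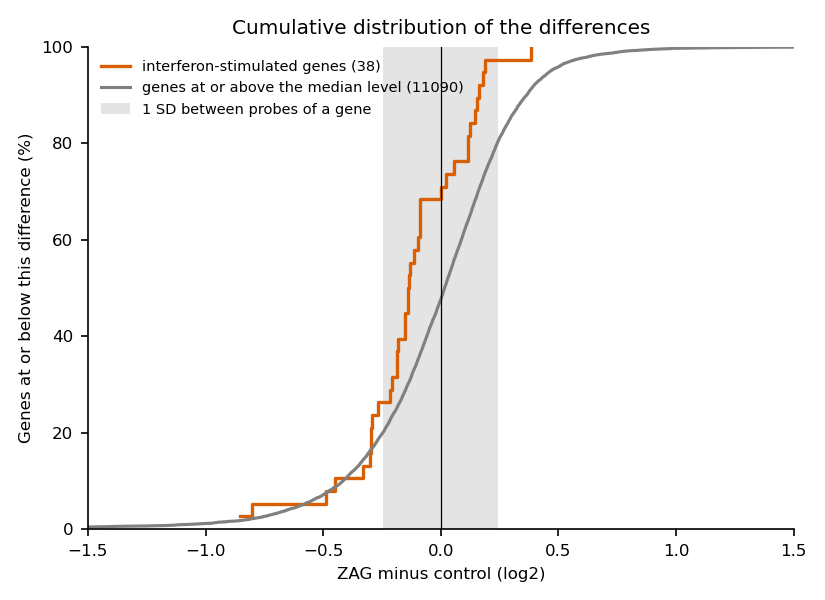
Cumulative share of genes (y axis, percent) at or below each log2 difference, ZAG minus control (x axis), for the 38 members and for the 11090 genes whose mean level reached the median, with a grey band for the SD of 0.244 between probes of a gene. The member curve lies above the other curve over most of the range, with 68.4% of members below 0, and it ends at 0.38.

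Marker genes of several leukocyte and stromal cell types were also lower on the ZAG array, and many of these cells express interferon-stimulated genes. In bulk skin, fewer cells of a type and less RNA per cell cannot be told apart. The macrophage and monocyte marker list had 10 of 12 genes lower with ZAG (83.3%, against 47.9% of all genes). Its mean log2 level was 6.00 with ZAG and 6.50 in control, and its summed linear level 1422 with ZAG and 1883 in control. Its members at least 1.5-fold lower were Cd14, the endotoxin co-receptor gene, at 5.11 with ZAG and 7.05 in control, Itgam, an integrin gene, at 4.84 with ZAG and 5.84 in control, and Cd68 (-0.70), Cd163 (-0.69) and Mrc1 (-0.63). In the macrophage list, Lyz2 (-0.15) and Mertk (-0.12) were lower by less than the SD between probes, and Ccr2 (0.34) and Adgre1 (0.09) were higher. The neutrophil list had 8 of 12 lower (66.7%, against 47.9% of all genes), with summed levels of 537.6 with ZAG and 1468 in control. Without S100a8, its brightest gene, the sums were 309.0 with ZAG and 865.9 in control, and these sums still held S100a9. Of the 12 neutrophil genes, 7 were lower by 2-fold or more (against 0.609% of all genes), and the median over all 12 was -1.29. Mmp9, a matrix protease gene, was at 4.99 with ZAG and 7.11 in control, S100a8 at 7.84 with ZAG and 9.23 in control, and S100a9, its partner in calprotectin, at 7.39 with ZAG and 8.88 in control. Csf3r (-1.22) and Cxcr2 (-1.05) were also lower, and Trem1 and Clec4e, below the gauge with ZAG, were at least 4.95-fold and 4.08-fold lower. Below the gauge on both arrays were Camp, Elane, Ly6g and Ngp, which also define neutrophils.

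The endothelial, fibroblast and keratinocyte lists were lower too, with 81.8%, 87.5% and 70.0% of their genes lower, against 47.9% of all genes. Their higher genes were Tek (0.07) and Egfl7 (0.02) for endothelium, Dcn (0.04) for fibroblasts, and Krt10 (0.01), Dsg1a (0.35) and Krt15 for keratinocytes. The endothelial list had 9 of 11 lower (summed level 464.7 with ZAG and 719.4 in control), with Eng (-1.11), Cdh5 (-0.91) and Pecam1 (-0.62) past 1.5-fold. The fibroblast list had 7 of 8 lower (7018 with ZAG and 8755 in control), with Pdgfrb (-0.84), Pdgfra (-0.79), Thy1 (-0.74) and Col1a1 (-0.70) past 1.5-fold. The keratinocyte list had 7 of 10 lower (11623 with ZAG and 12999 in control), with Itgb4 (-0.87), Krt14 (-0.73) and Dsg3 (-0.68) lower and Krt15 (0.66) higher by at least 1.5-fold. The lymphocyte lists had no common direction. The T and NK cell list had 6 of 13 lower and 6 higher, with Cd4 (-1.06) lower and Cd3g (0.72) higher past 1.5-fold. Its summed levels were 189.1 with ZAG and 176.1 in control, and 135.1 with ZAG and 143.2 in control without Cd3g, its brightest gene. The B and plasma cell list had 2 of 7 lower, with Cd79a, Cd79b, Ms4a1 and Pax5 below the gauge on both arrays (summed levels 159.2 with ZAG and 148.8 in control). Of the plasmacytoid dendritic cell list, which marks the main interferon-alpha producers, Siglech, Ccr9 and Spib were below the gauge on both arrays, and 3 of 8 genes were lower. Its summed level (878.2 with ZAG and 953.2 in control) was mostly that of Ly6d, which keratinocytes also express, and was 147.5 with ZAG and 188.6 in control without it. Klk1, below the gauge with ZAG, was at least 2.79-fold lower. The part of these markers in the differences of the interferon-stimulated genes was not tested.

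The transcription factors that carry the interferon signal were mixed, with 3 of 5 lower (against 47.9% of all genes) and a median difference of -0.18. Irf7, the factor that amplifies interferon-alpha production, was at 4.51 with ZAG and 4.97 in control, a log2 difference of -0.45. Irf1, an early target of interferon-gamma that drives antigen-processing genes, was at 4.33 with ZAG and 4.63 in control (-0.30). Both were lower by more than the SD between probes. The partners of the ISRE-binding complex went opposite ways by less than that SD. Stat2 was at 5.42 with ZAG and 5.24 in control (0.18), and Irf9, its DNA-binding partner, was at 4.93 with ZAG and 5.12 in control (-0.18). Irf8, a factor of macrophage and dendritic cell development, was at 3.67 with ZAG and 3.65 in control (0.02). Its probes disagreed in sign, with differences of -0.10 and 0.15, and the second was below the gauge on both arrays.

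The sensors of foreign nucleic acid differed little, with 4 of 5 lower (against 47.9% of all genes) and a median of -0.13. Zbp1, which senses Z-form nucleic acid and can start cell death, was at 4.52 with ZAG and 4.82 in control (-0.30). Eif2ak2, which encodes the kinase PKR that stops translation on double-stranded RNA, was at 3.92 with ZAG and 4.11 in control (-0.19). The 3 RIG-I-like receptor genes were within the SD between probes. Dhx58, which encodes the regulator LGP2, was at 3.77 with ZAG and 3.90 in control (-0.13). Ifih1, the gene of the long double-stranded RNA sensor MDA5, was at 5.12 with ZAG and 5.21 in control (-0.09), and Ddx58, the gene of RIG-I itself, was at 4.55 with ZAG and 4.49 in control (0.05).

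The type I effectors had 14 of 20 genes lower (70.0%, against 47.9% of all genes) and a median of -0.14. They held both members past 1.5-fold (10.0% of the list, against 2.79% of all genes that much lower). At or above the median level these were 2 of 16 type I effectors (12.5%), against 5.08% of genes. Oasl2, a gene of the 2′-5′-oligoadenylate synthetase-like family of antiviral proteins, was at 4.29 with ZAG and 5.14 in control, a log2 difference of -0.85 or 1.80-fold lower. It ranked as number 197 from the lowest difference among the 11090 genes at or above the median level. Usp18, the protease that removes ISG15 from proteins and damps signalling at the type I receptor, was at 3.87 with ZAG and 4.67 in control, a difference of -0.80 or 1.74-fold lower, and ranked as number 241. Isg15, the ubiquitin-like modifier that Usp18 removes, differed less. It was at 5.22 with ZAG and 5.51 in control, a difference of -0.30.

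The oligoadenylate synthetases make a second messenger that activates the RNA-degrading enzyme RNase L. Oas2 was at 3.89 with ZAG and 4.22 in control (-0.33), and Oas3 at 4.20 with ZAG and 4.34 in control (-0.14). Oasl1 lies next to Oasl2 with no other protein-coding gene between them in the reference gene table, and it was near the gauge on both arrays (3.06 with ZAG and 3.20 in control). Below the gauge with ZAG, Oasl1 was at least 1.02-fold lower, and such a bound does not allow the 2 neighbours to be compared.

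Of the other type I effectors, Rsad2, Cmpk2, Parp14, Isg20, Rtp4, Trim25, Xaf1 and Ifi35 had differences between -0.29 and 0.0004. Ifit3 (0.16), Bst2 (0.15) and Ifit2, near the gauge, were higher and are given below. Rsad2, which encodes viperin, an enzyme that makes a chain-terminating nucleotide, was at 3.77 with ZAG and 4.04 in control (-0.27). Its neighbour Cmpk2, a mitochondrial nucleotide kinase gene, was at 4.30 on both arrays (0.0004). Parp14, an ADP-ribosyltransferase gene, was at 4.94 with ZAG and 5.24 in control (-0.29). Of these, Rsad2 and Parp14 were lower by more than the SD between probes. Isg20, an RNA exonuclease gene, was at 5.65 with ZAG and 5.80 in control (-0.15), and Rtp4, a gene of a receptor-transporting protein induced by interferon, at 5.83 with ZAG and 5.99 in control (-0.15). Trim25, the ubiquitin ligase gene that acts on RIG-I, was at 5.53 with ZAG and 5.67 in control (-0.14). Xaf1 (-0.09) and Ifi35 (-0.09) differed by less still, and the 2 probes of Ifi35 gave -0.07 and -0.10.

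The IFIT genes encode proteins that bind foreign RNA caps and ends, and they did not move together. Ifit1 was at 4.43 with ZAG and 4.53 in control (-0.10), and Ifit3 at 4.0 with ZAG and 3.84 in control (0.16). Ifit2 was near the gauge (3.18 with ZAG and 3.06 in control). The promoters of Ifit1 and Ifit3 each hold the forms TTTCACTTTC and TTTCAGTTTC, as printed above, while their differences were of opposite sign and within the SD between probes. Bst2, the gene of tetherin, which holds budding virions at the cell surface, was at 4.41 with ZAG and 4.25 in control (0.15). Mx1 was at 2.78 with ZAG and 2.59 in control, and Mx2 at 1.92 with ZAG and 1.78 in control. Both Mx genes, which encode antiviral dynamin-like GTPases, lay under the gauge in both samples and are given no fold.

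**Figure D3:**
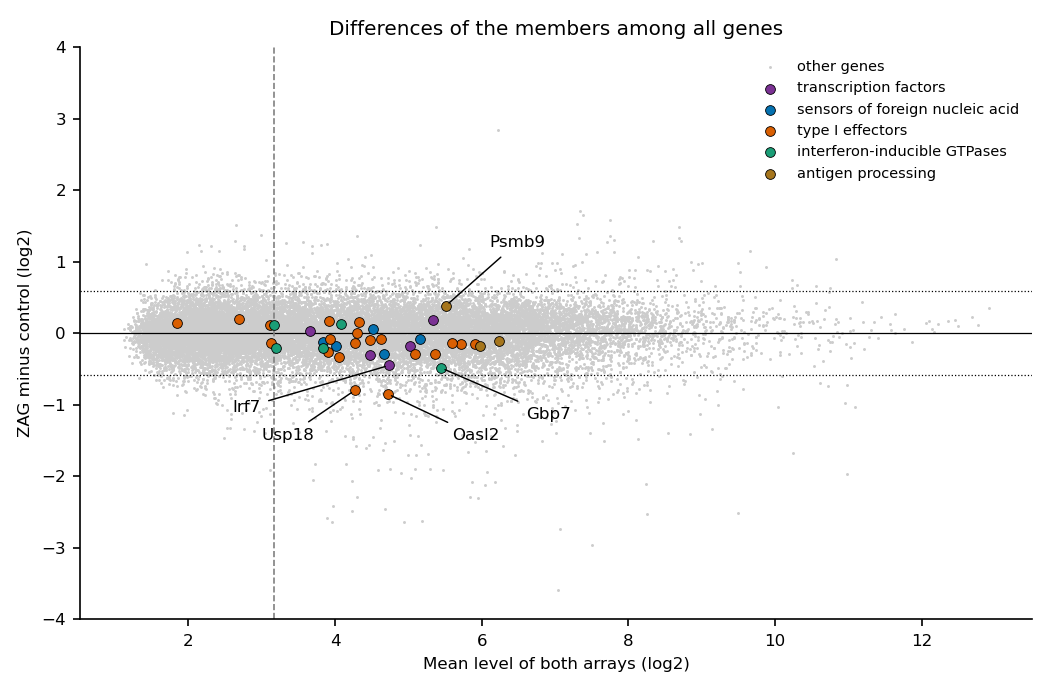
Log2 difference, ZAG minus control (y axis), against the mean log2 level of both arrays (x axis), for all genes (grey) and for the 38 members (coloured by role); dotted lines mark 1.5-fold and the dashed line the gauge. Only Oasl2 (-0.85) and Usp18 (-0.80) among the members lie beyond a dotted line, and Psmb9 (0.38) is the highest member.

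The interferon-inducible GTPases attack the vacuoles of intracellular microbes and are induced mainly by interferon-gamma. They had 3 of 5 measured members lower (against 47.9% of all genes) and a median of -0.21. Gbp7 was at 5.20 with ZAG and 5.69 in control, a difference of -0.49 or 1.40-fold lower. Its neighbours in the chromosome 3 cluster, Gbp5 and Gbp3, were close to the gauge. Gbp5 was at 3.09 with ZAG and 3.30 in control, and Gbp3 at 3.22 with ZAG and 3.10 in control. Of the immunity-related GTPases, Irgm1, a regulator of the family, was at 3.72 with ZAG and 3.94 in control (-0.22), and Igtp, an effector also called Irgm3, at 4.14 with ZAG and 4.02 in control (0.12). Gbp7 and Gbp3 both carry the form TTTCAGTTTC within 60 bases of their start sites, and Gbp7 also had 2 GAS cores, at 106 and 87 bases before its start. GAS cores were also found in Gbp5, at 245 and 52 bases, and in Igtp, at 45 bases before the start. Near-identical copies in this family may share probe signal, which the annotation does not tell apart.

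The antigen-processing members went both ways. Psmb9, which encodes the immunoproteasome subunit LMP2, was at 5.70 with ZAG and 5.32 in control, a difference of 0.38 or 1.30-fold higher, the highest of the 38 members. Psmb8, which encodes the subunit LMP7, was at 6.18 with ZAG and 6.29 in control (-0.11), and Tap1, a chain of the peptide transporter, at 5.88 with ZAG and 6.07 in control (-0.19). The 3 genes are neighbours on chromosome 17 inside the MHC. Psmb9 and Tap1 are read in opposite directions from a common stretch of 225 bases between their start sites, known as a target of IRF1. That stretch, at chr17:34187331-34187555, plus strand, is shown in the direction of Tap1.
Psmb9 to Tap1: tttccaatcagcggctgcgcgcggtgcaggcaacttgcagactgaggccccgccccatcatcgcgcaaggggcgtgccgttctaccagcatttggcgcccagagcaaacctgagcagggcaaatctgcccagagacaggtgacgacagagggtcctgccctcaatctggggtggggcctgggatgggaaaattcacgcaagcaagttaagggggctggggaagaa
It held 0 matches to the ISRE core and 0 to the GAS core as written above. The differences of the genes on its sides were of opposite sign, 0.38 for Psmb9 and -0.19 for Tap1, and the second was within the SD between probes. The catalytic subunits of the standard proteasome, which the immunoproteasome subunits replace, were also higher. Psmb6, the partner that Psmb9 replaces, was at 7.43 with ZAG and 7.28 in control (0.15), Psmb5 differed by 0.08 and Psmb7 by 0.28. Psmb10, the third immunoproteasome subunit gene, was at 6.09 with ZAG and 6.42 in control (-0.33).

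Members with and without an ISRE core had much the same median difference. Of the 12 measured members with the core, 7 were lower with ZAG (median -0.12), and of the 18 with a promoter entry and no core, 13 were lower (median -0.12). For the GAS core, 6 of 10 members with it were lower (median -0.13), and 14 of 20 without it (median -0.12). By role, the ISRE core was found in 6 of 6 GTPase genes, 7 of 16 type I effectors, 1 of 5 transcription factors, 0 of 3 sensors and 0 of 3 antigen-processing genes with an entry. A match is a description of letters in this window and not of a bound site.

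**Figure D4:**
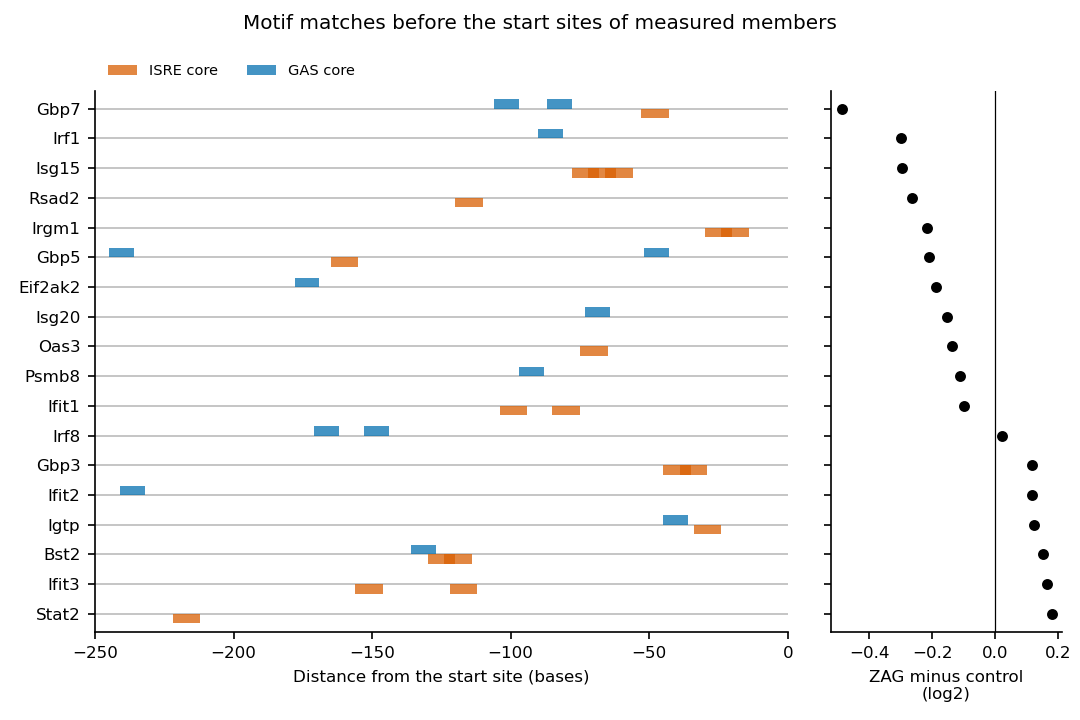
Position of ISRE core (orange) and GAS core (blue) matches in the 250 bases before the start site (left, distance in bases) for measured members with a match, ordered by their log2 difference, ZAG minus control (right). Matches are spread over members on both sides of 0, from Gbp7 at -0.49 to Stat2 at 0.18.

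Upstream of these genes, the interferons themselves were mostly too dim to read. Of 19 measured ligand genes, 12 were below the gauge on both arrays, including Ifnb1, Ifnk, Ifne and Ifng. The readable ones were Ifna1 (4.94 with ZAG and 4.84 in control), Ifna4 (3.88 with ZAG and 3.83 in control), Ifna14 (3.84 with ZAG and 3.26 in control), Ifna15 (3.68 with ZAG and 4.04 in control), Ifnl2 (5.21 with ZAG and 5.26 in control) and Ifnl3 (4.83 with ZAG and 4.68 in control), and Ifna7 was at the gauge (3.15 with ZAG and 3.28 in control). The interferon-alpha genes are near-identical copies, so single values of theirs are uncertain. The receptors had 4 of 6 genes lower (66.7%, against 47.9% of all genes) and a median of -0.19. Ifnar1 and Ifnar2, the type I receptor chains, differed by -0.24 and -0.14, and Ifngr1 and Ifngr2, the type II chains, by -0.36 and 0.03. Il10rb, a chain that the type III receptor shares with other cytokines, differed by -0.39, and its partner Ifnlr1 by 0.13.

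The signalling genes below the receptors were mostly lower. Of 10 JAK-STAT genes and inhibitors, 8 were lower (against 47.9% of all genes), with a median of -0.40. Jak1 was at 7.87 with ZAG and 8.29 in control (-0.42), Jak2 at 6.81 with ZAG and 7.29 in control (-0.48), while Tyk2 differed by 0.04. These kinases serve many cytokine receptors besides those of the interferons. Stat3, a factor of the interleukin-6 family rather than of the interferons, was at 7.68 with ZAG and 8.51 in control, 1.78-fold lower. Socs1, a feedback inhibitor that interferon induces, was at 3.91 with ZAG and 4.49 in control (-0.58), just short of 1.5-fold. Socs3 differed by -0.23, Pias1 by -0.39 and the phosphatase genes Ptpn6, Ptpn11 and Ptpn2 by -0.40, -0.04 and 0.13.

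The genes that lead from nucleic acid sensing to interferon production had 11 of 13 lower and a median of -0.25. Their share lower was 84.6%, against 47.9% of all genes. Sting1, the adaptor for cytosolic DNA sensing, was at 4.65 with ZAG and 5.77 in control, 2.17-fold lower, while Cgas, the enzyme upstream of it, was below the gauge on both arrays. Unc93b1, which carries the endosomal Toll-like receptors, was at 5.83 with ZAG and 6.44 in control, 1.53-fold lower.

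Further interferon-stimulated genes outside the 41 were counted by the kind of interferon that mainly induces them. Of 39 other type I genes, 28 were lower (71.8%, against 47.9% of all genes), with a median of -0.18. At least 1.5-fold lower were 6 (15.4%, against 2.79% of all genes), and 0 were that much higher (against 1.46%). At or above the median level the share 1.5-fold lower was 18.5%, against 5.08%. Samhd1, which depletes nucleotides and is abundant in myeloid cells, was at 6.78 with ZAG and 8.18 in control, 2.64-fold lower. Pml, the organiser of nuclear bodies, was 1.80-fold lower and Slfn2, a schlafen gene of lymphoid and myeloid cells, 1.74-fold lower. Ifitm1, Ifitm3 and Helz2 were 1.57-fold, 1.52-fold and 1.52-fold lower, the first 2 being genes of membrane proteins that block virus entry. Of 18 other genes induced mainly by interferon-gamma, 9 were lower and 9 higher, with a median of -0.01, and of 12 other MHC class I and peptide-loading genes, 6 were lower and 6 higher, with a median of -0.02. B2m, the common light chain of class I molecules, was at 11.32 with ZAG and 11.28 in control. The chemokine gene Cxcl9 was at 4.98 with ZAG and 4.78 in control, while Cxcl10 was at 2.95 with ZAG, below the gauge, and 3.58 in control, at least 1.34-fold lower. Whether these lists differ from each other was not tested, since 1 array a group gives no error for such a test.

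**Figure D5:**
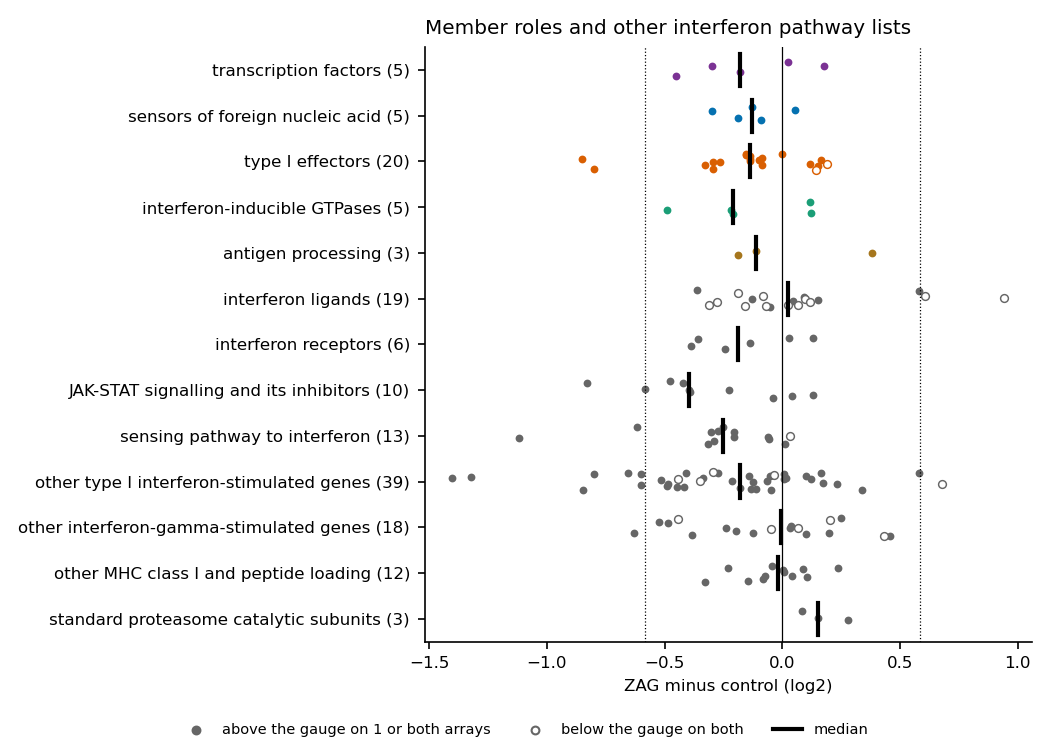
Log2 difference, ZAG minus control (x axis), of each measured gene in the 5 member roles (coloured) and the other interferon pathway lists (grey), with the number of genes in brackets, a black bar for the median and open points for genes below the gauge on both arrays. Medians run from -0.40 for the JAK-STAT list to 0.15 for the standard proteasome subunits, and dotted lines mark 1.5-fold.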

How the data were processed

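Affymetrix arrays of skin RNA from 2 samples, 1 labelled ZAG and 1 labelled control, were used. The authors deposited log2 values, as inferred from their range (0.866 to 13.19 with ZAG and 0.889 to 12.75 in control). The method by which the authors normalized them is not given in the sources consulted, and the column medians were 3.36 with ZAG and 3.33 in control. Of 33793 probes, the platform annotation gave 23521 exactly 1 gene symbol, 1814 several and 8458 none. Probes with 1 symbol were averaged per gene, which gave 22180 genes. Older symbols were updated through a reference gene table (GRCm38.p6), which held the gene ID of 23328 of these probes. Where a gene below the gauge on 1 array is given a fold, it is against the gauge ("at least"), and genes under it in both samples get none.

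The 41 genes were named in full. Genes of the pathway and marker lists were named where at least 1.5-fold different, and ligands, receptors and JAK-STAT genes where above the gauge on at least 1 array. Other names were chosen after the values were seen. The members and lists were chosen with earlier results of these data known. With 1 array a group no test was made, and the number of arrays limits the precision. The rule for printing promoters (members at least 1.5-fold lower with an ISRE core) gave 0 sequences, so others were chosen. Of the 2 members that much lower, Oasl2 held no core, and Usp18 had no promoter entry and was not searched. Promoter letters run along the gene's strand: TATAAA stood 20 to 40 bases before the start in 310 plus-strand and 303 minus-strand windows, its reverse complement in 90 of each. Alternatives were median centring, quantile normalization, the brightest probe, a loess fit against level with span 0.3, filters on level, list means, a 2-fold threshold and gauges at percentiles 90 and 99. The counting was tested on simulated data with known shifts. Tables were handled with pandas 2.3.3 and numpy 2.4.6 under Python 3.11.15, loess came from statsmodels 0.14.6, and plots were drawn with matplotlib 3.10.9.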

Additional observations from a re-analysis of the deposited data

How the results depend on the processing

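The median difference of the 38 members lay between -0.16 and -0.13 under every alternative run (median centring, quantile normalization, loess, the brightest probe, both filters on level and the mean). As deposited, under the scalings and with the brightest probe, 26 to 28 members were lower, against 47.9% to 52.4% of all genes. The count of 28 came from median centring and loess, where 52.4% and 51.2% of all genes were lower. Irf8 and Cmpk2, the members closest to 0, changed sign under some of these settings. Of the 12 higher members, 7 were at or above the median level of all genes. At 2-fold, 0 members were lower, and with the gauge at percentile 99 (4.10) 1 member was at least 1.5-fold lower, since Usp18 with ZAG is then below the floor. The antigen-processing difference was -0.11 as a median and 0.0275 as a mean, which Psmb9 sets among 3 genes. The ligand median was 0.03 as deposited and -0.0004 after median centring. At or above the median level of all genes the medians turned to 0.0384 for the other interferon-gamma-stimulated genes and 0.0039 for the other MHC class I genes, where fewer genes were counted, and to -0.0654 for the plasmacytoid dendritic cell markers (as above the gauge), against 0.04 over all of these. No paired analysis was possible because each group has 1 array. Most pathway ligands were too close to background for a direction, and the single arrays set the limit for all other values.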

Other observations

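Probes annotated to more than 1 gene were left out of every comparison. The probe named for both Gbp2 and Gbp2b was at 5.0 with ZAG and 4.97 in control, a log2 difference of 0.03, while the probe named for Gbp2b alone was at 4.83 with ZAG and 4.37 in control (0.46). The probe named for both Oas1a and Oas1g was at 2.28 with ZAG and 2.69 in control, below the gauge on both arrays. The conventional dendritic cell markers went both ways, while most macrophage markers were lower. Of 9 measured, 6 were higher (median 0.21), against 51.8% of all genes, and none by 1.5-fold. Above the gauge on both arrays, the higher genes were Cd207 (0.53), Epcam (0.47), Dpp4 (0.42), Itgax (0.21) and Cd209a (0.05). Itgax and Cd209a lay within the SD between probes. Which skin cells gave these signals was not tested. The 3 lower genes were Flt3 (-0.02), Zbtb46 (-0.15, below the gauge with ZAG) and Xcr1 (-0.49). The summed level was 740.9 with ZAG and 602.6 in control, and 456.7 with ZAG and 397.1 in control without Epcam, its brightest gene. Cd207, which encodes the lectin langerin, was at 6.43 with ZAG and 5.91 in control. The markers of cross-presenting dendritic cells went opposite ways near the gauge. Batf3 was at 3.34 with ZAG and 2.65 in control, the second below the gauge, and Xcr1 at 3.11 with ZAG, below the gauge, and 3.60 in control.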
